A study of Homo sapiens with 6 samples.

Results

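The SLIT and ROBO guidance genes were taken as the 3 SLIT ligands, the 3 ROBO receptors and the 3 SRGAP effectors that the table lists by symbol, 9 of its 21301 genes. Being listed was the only measured value the choice itself used, because the table holds only genes with at least 1 read in every library. The family was proposed with results of these same libraries known, so its counts and p-values describe these genes and are not independent evidence of a pattern. All 9 members passed the filter on low counts, as did 19694 genes in all.

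SH-SY5Y cells, an established human neuroblastoma line, were treated for 72 h with siControl or with siPSF at 10 nM, in 3 libraries per group. PSF, encoded by SFPQ, is a nuclear RNA-binding protein of the paraspeckle, and the comparison asks which RNAs depend on it. The study names 1 siRNA (siPSF #2) for these libraries, which it calls biological triplicates, so effects of losing PSF and any other effect of that siRNA cannot be told apart. In bulk RNA, fewer cells of a kind and less RNA per cell cannot be told apart either. Levels of 1 gene are given as CPM, read counts scaled to library size. Levels of different members are compared as FPKM, which also divides by transcript length. The CPM of different marker genes, and sums of them, are not corrected for length.

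The libraries held 101540520 to 132420931 counts. Replicate 3 differed most from the others of its group, with a chi-square per degree of freedom of 56.9 and 62.6 in siPSF (21.7 between the other two) and of 63.8 and 59.5 in siControl (34.9 between the other two). SFPQ was left at 50.2% of its siControl level (165 to 209 CPM after siPSF, 356 to 401 CPM after siControl). All 9 markers of adrenergic neuroblastoma cells were detected, from 1000 to 2046 CPM for DBH and 1113 to 1292 CPM for HAND2 down to 0.17 to 0.84 CPM for TH. Of these, DBH (log2 fold change -0.68) and TH (-1.20), both enzymes of catecholamine synthesis, were called lower and the transcription factor GATA3 (0.30) higher, with edgeR's adjusted p of 0.0024, 0.025 and 0.032. The other 6 were not called. The part of this shift in the members' changes was not tested. The markers' summed level was 4751 to 5416 CPM after siControl and 4222 to 4834 CPM after siPSF. DBH, HAND2 and GATA2 made up most of it. Of these only DBH was called, and HAND2 and GATA2 each had a log2 fold change of -0.004. Of 10 mesenchymal markers, 8 were listed, with a summed level of 204 to 224 CPM after siControl and 193 to 219 CPM after siPSF. Most of that sum was TWIST1 (170 to 210 CPM), and PRRX1 and RUNX1 were not listed.

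Slits are large secreted proteins that repel or branch growing axons and steer migrating cells. They bind Robo receptors, single-pass membrane proteins of the immunoglobulin superfamily, with heparan sulphate as a cofactor. The srGAP proteins bind the cytoplasmic tail of Robo, bend membranes with their F-BAR domain and switch off small GTPases, which changes the actin cytoskeleton. ROBO3 differs from the other receptors in that the mammalian protein does not bind Slits with high affinity, and it is known for guiding commissural axons across the midline.

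After siPSF, 5 of the 9 genes were lower at an adjusted p under 0.05 and 0 were higher: the receptors ROBO2 and ROBO1, the ligands SLIT2 and SLIT3, and the effector SRGAP3. Among all tested genes, 8.27% were called lower and 6.65% were called higher. The median log2 fold change of the 9 genes was -0.45, beside 0.01 over all tested genes. ROBO2 had the largest change of the 9 and was the only member that fell by more than 2-fold, as did 2.3% of all tested genes. Groups were separate, with all siPSF values under all siControl values, for 6 of the 9, as for 17.8% of all tested genes. Without siPSF replicate 3, 5 members were called lower and SLIT1 was called higher, and without siControl replicate 3 only ROBO1 and ROBO2 remained called. All adjusted p-values below are Benjamini-Hochberg values over the 19694 genes from edgeR's quasi-likelihood fit.

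**Figure D1:**
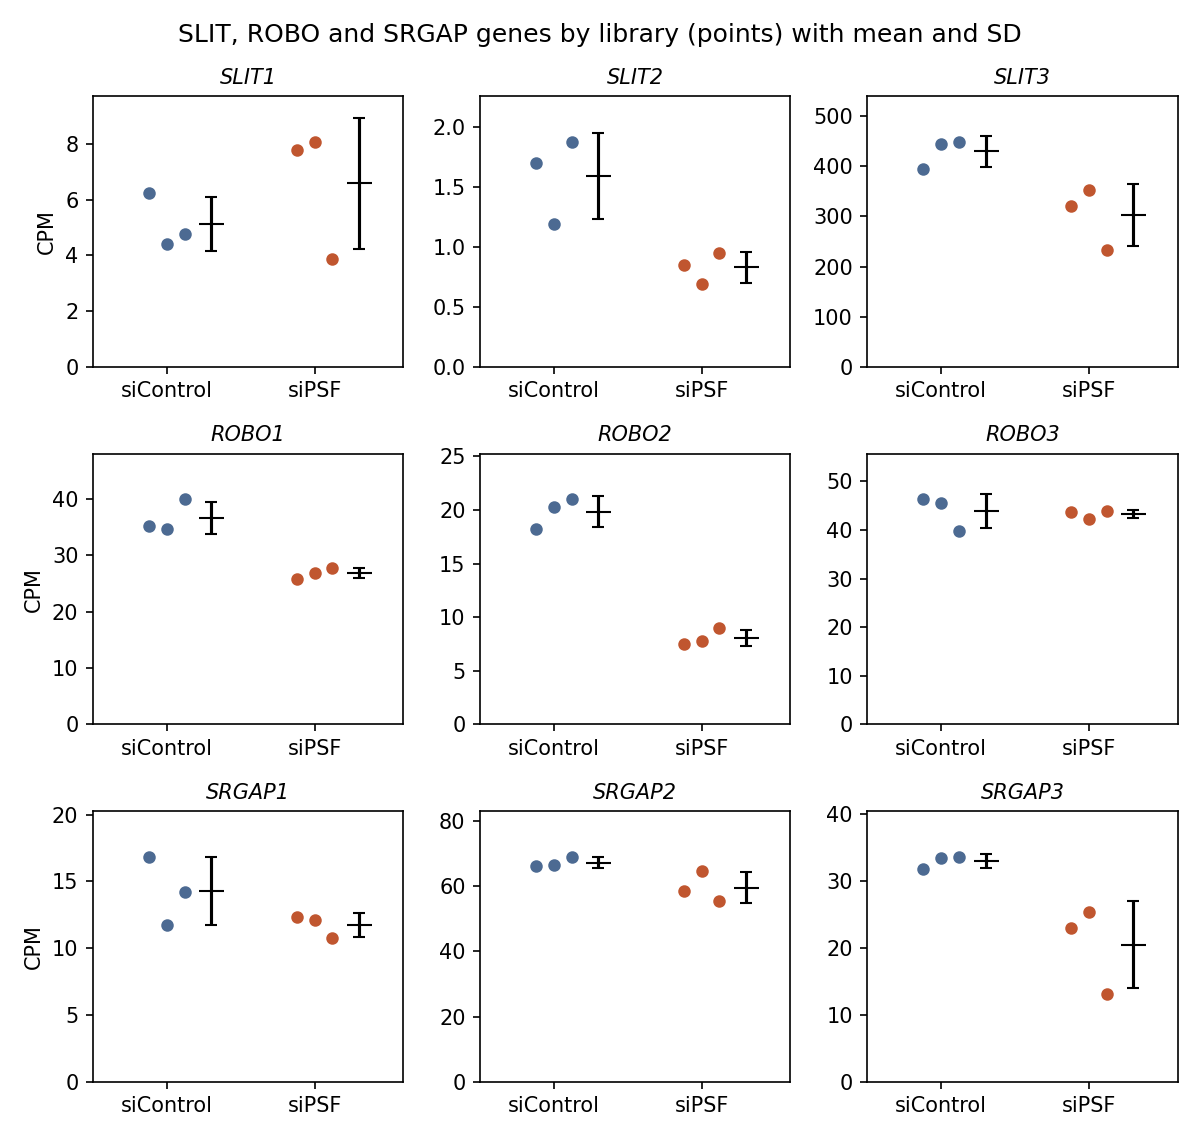
Each panel plots 1 gene, with its level in CPM on the vertical axis (starting at 0) for the 3 siControl and 3 siPSF libraries as points and the mean and SD of each group beside them. ROBO2 shows the widest gap between groups, ROBO3 none, and in SLIT3, SLIT1 and SRGAP3 siPSF replicate 3 lies well below the other siPSF libraries.

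Of the receptors, ROBO2 and ROBO1 lie next to each other on the short arm of chromosome 3 of GRCh38. ROBO2 (gene ID 6092, plus strand) runs from 75906675 to 77649964 and ROBO1 (gene ID 6091, minus strand) from 78597239 to 79767998, 947.3 kb further on. They are very long genes, with RefSeq spans of 1743.3 and 1170.8 kb. The longest intron of the MANE Select transcript, the reference isoform, spans 379.1 kb in ROBO2 and 464.3 kb in ROBO1. In ROBO2 that transcript starts 1133.4 kb into the span. ROBO3 (gene ID 64221, plus strand) lies on chromosome 11 from 124865432 to 124881471 and is the shortest of the 9 genes.

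With siControl, ROBO2 read 18.3, 20.3 and 21.0 CPM. With siPSF it read 7.54, 7.78 and 8.96 CPM. The groups were far apart, with every siPSF library under 9 CPM. The mean dropped from 19.9 ± 1.42 to 8.09 ± 0.761 CPM (SD, n = 3 each). The fitted log2 fold change was -1.30 (SE 0.11, edgeR's adjusted p = 4.5e-05), so that 40.7% was left. The call held whichever library was left out, with log2 fold changes from -1.37 to -1.25.

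ROBO1 stood at 35.2, 34.7 and 40.0 CPM with siControl. Its siPSF values were 25.9, 26.9 and 27.8 CPM. The groups did not overlap, and the fall was smaller than that of ROBO2. Its mean went from 36.6 ± 2.90 to 26.9 ± 0.952 CPM (SD, n = 3 each). The fitted log2 fold change was -0.45 (SE 0.09, edgeR's adjusted p = 0.0079). This call also held with each library left out in turn.

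For ROBO3 the siControl values were 46.4, 45.5 and 39.9 CPM. Those with siPSF were 43.8, 42.2 and 43.9 CPM. All siPSF values lay within the range of siControl. The log2 fold change was -0.02 (SE 0.09, edgeR's adjusted p = 0.91), and it changed sign, to 0.019, without siControl replicate 1.

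The ratio of ROBO1 to ROBO2 within a library does not depend on library size. Its log2 value was 0.95, 0.78 and 0.93 after siControl and 1.78, 1.79 and 1.63 after siPSF. It went up by 0.85 without overlap between groups (exact permutation test over libraries, two-sided, p = 0.10, the smallest that 3 against 3 can give; 0.15 after adjustment over the 9 pairs compared). Against ROBO3, the log2 ratio of ROBO2 went from -1.15 ± 0.211 to -2.42 ± 0.125 and that of ROBO1 from -0.26 ± 0.230 to -0.69 ± 0.0616 (SD, n = 3 each). Neither pair overlapped between groups, with the same smallest p of 0.10 from the exact permutation test.

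Counted per length, the receptors together gave 31.6, 31.2 and 30.4 FPKM after siControl and 27.3, 26.2 and 27.0 FPKM after siPSF. FPKM was not normalized between libraries as CPM was. Over all genes fitted by limma on log2(FPKM + 0.5), the median log2 fold change was -0.06, beside 0.01 in the main fit. ROBO3 made up 78.5% ± 2.57 of that sum after siControl and 85.2% ± 0.631 after siPSF (SD, n = 3 each). The share of ROBO2 was 6.74% ± 0.731 and then 3.01% ± 0.250, and the share of ROBO1 14.8% ± 1.92 and then 11.8% ± 0.429 (SD, n = 3 each). These shares hang on the transcript lengths implied by count and FPKM, which were unusual for ROBO3. Rescaling takes all reads of a gene to come from its MANE Select transcript, which was not tested. Rescaled to MANE Select lengths, the share of ROBO3 was 56.4% ± 3.76 and then 66.7% ± 1.06, and that of ROBO2 12.8% ± 1.06 and then 6.25% ± 0.462 (SD, n = 3 each). The quotient of count and FPKM gives the transcript length implied for a gene. It was calibrated in 1685 genes with 1 listed transcript, a MANE Select transcript and at least 200 reads in every library. There it was 1.102 times the MANE length at the median and hardly varied (1.102 to 1.103 after leaving out the extreme genes at either end). Genes with more listed transcripts, such as ROBO3 with 16, were not calibrated. Whether the implied length of ROBO3 is 1 fixed length or a mean over isoforms was not tested. With the factor of 1.102 taken out, it was 1660 to 1697 nt, in all 6 libraries alike. At the median this was 37.0% of its MANE Select transcript of 4528 nt. That of SRGAP1, with 6 listed transcripts, was not fixed and ran from 19569 to 21763 nt over the libraries. For SLIT1, with 1 listed transcript, it ran from 7946 to 8025 nt. The implied length was 7381 to 7531 nt for ROBO1 (MANE 6927 nt) and 8808 to 8941 nt for ROBO2 (MANE 9018 nt). So ROBO3 and ROBO1 had similar scaled read counts after siControl, 43.9 and 36.6 CPM, while their FPKM were 24.4 and 4.59.

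**Figure D2:**
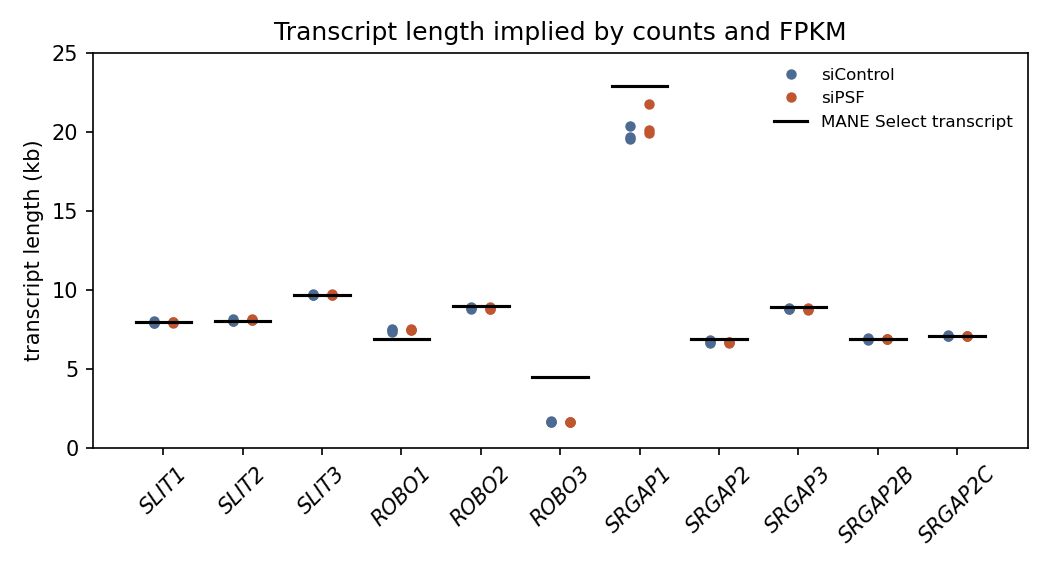
Points give, for each gene and library, the transcript length in kb implied by the deposited count and FPKM, and black bars the length of the MANE Select transcript. The points of ROBO3 (1660 to 1697 nt against 4528 nt) and SRGAP1 (19569 to 21763 nt against 22920 nt) lie below their bars, and in proportion to its bar the gap of ROBO3 is the wider. The siPSF and siControl points nearly coincide in every gene except SRGAP1. The SRGAP2 copies SRGAP2B and SRGAP2C are plotted beside the 9 members.

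RefSeq places starts of ROBO3 at the gene's first base and also 10.8 and 11.4 kb into the gene, in its 3′ part, while the MANE start of ROBO2 lies 1133.4 kb into its span. The upstream windows are shown because the short ROBO3 length and the long ROBO2 span both bear on which start is in use, which counts per gene do not tell. Each line gives the 250 bases before a start, 5′ to 3′ on the gene's strand, from RefSeq's GRCh38.p14 promoter table. Capitals mark the GC box GGGCGG or its reverse complement CCGCCC.
ROBO2, MANE start, chr3:77039849-77040098, plus strand: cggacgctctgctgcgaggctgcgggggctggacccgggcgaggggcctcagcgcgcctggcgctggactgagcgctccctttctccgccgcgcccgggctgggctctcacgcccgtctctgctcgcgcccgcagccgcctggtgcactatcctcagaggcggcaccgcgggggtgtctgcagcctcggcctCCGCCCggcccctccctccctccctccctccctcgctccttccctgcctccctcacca
ROBO3, first start, chr11:124865182-124865431, plus strand: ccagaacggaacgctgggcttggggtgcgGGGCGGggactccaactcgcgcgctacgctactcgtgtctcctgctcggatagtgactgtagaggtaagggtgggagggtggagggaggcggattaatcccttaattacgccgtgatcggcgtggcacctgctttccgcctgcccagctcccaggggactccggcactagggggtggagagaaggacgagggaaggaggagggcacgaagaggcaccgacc
ROBO3, start 10.8 kb into the gene, chr11:124875932-124876181, plus strand: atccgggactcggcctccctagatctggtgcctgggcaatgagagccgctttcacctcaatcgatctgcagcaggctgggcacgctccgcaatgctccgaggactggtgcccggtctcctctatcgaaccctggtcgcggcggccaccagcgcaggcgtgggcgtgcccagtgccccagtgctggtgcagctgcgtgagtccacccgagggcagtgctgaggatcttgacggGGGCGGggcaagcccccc
The 3 windows shown hold 1 GC box each, the ROBO3 window at 11.4 kb holds 4 and the 2 ROBO1 windows in the table hold 0. At least 1, on either strand, stands in 42.6% of the 35116 windows in the table. None of the 3 shown has the TATA box TATAAA (either strand), which 10.7% of all windows hold. GC content was 76.0% in the ROBO2 window and 64.4% and 68.0% in the ROBO3 windows, beside a median of 58.0%. The other ROBO2 start in the table, 404.2 kb into the gene, had a GC content of 46.8% and no GC box.

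Among the ligands, SLIT3 was by far the most abundant. It gave 37.3, 42.0 and 44.2 FPKM after siControl, against 0.507 to 0.719 FPKM for SLIT1 and 0.135 to 0.223 FPKM for SLIT2, so that it made up 98.1% ± 0.452 (SD, n = 3) of the summed ligand FPKM. By the deposited values SLIT3 had the highest FPKM of the 9 members, followed by ROBO3, SRGAP2, ROBO1, SRGAP3, ROBO2, SRGAP1, SLIT1 and SLIT2. In the siControl libraries only the neighbours SRGAP1 and SLIT1 overlapped in that order. The place of ROBO3 rests on its short implied length: rescaled to MANE Select lengths, ROBO3 (8.42 to 9.50 FPKM) and SRGAP2 (8.85 to 9.60 FPKM) overlapped as well.

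SLIT3 (gene ID 6586; chromosome 5 from 168661740 to 169301139, minus strand, 639.4 kb) stood at 394, 445 and 449 CPM with siControl. The siPSF values were 321, 353 and 233 CPM. The groups were separate, and siPSF replicate 3 was lowest. The log2 fold change was -0.51 (SE 0.13, edgeR's adjusted p = 0.023). It was -0.35 without siPSF replicate 3 (adjusted p = 0.025). The call was lost without siControl replicate 2 (edgeR's adjusted p = 0.083) or siControl replicate 3 (0.090).

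SLIT2 (gene ID 9353; chromosome 4 from 20251905 to 20620561, plus strand, 368.7 kb) rested on few reads, 159 to 237 per siControl library and 73 to 101 per siPSF library. This came to 1.70, 1.19 and 1.88 CPM with siControl. With siPSF it was 0.850, 0.692 and 0.954 CPM. The groups did not overlap, and 52.3% was left (log2 fold change -0.94, SE 0.23, edgeR's adjusted p = 0.018). The call was lost without siControl replicate 3 (edgeR's adjusted p = 0.083) or siPSF replicate 2 (0.056).

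SLIT1 (gene ID 6585; chromosome 10 from 96998038 to 97185959, minus strand, 187.9 kb) gave 6.22, 4.41 and 4.76 CPM with siControl. It gave 7.78, 8.08 and 3.88 CPM with siPSF. Of the siPSF libraries 2 lay above and 1 below all siControl libraries. The log2 fold change was 0.36 (SE 0.24, edgeR's adjusted p = 0.34). Without siPSF replicate 3 it was 0.63 and SLIT1 was called higher (adjusted p = 0.0096), so the reading of this gene turns on that library. The log2 ratio of SLIT1 to SLIT3 was higher in all 3 siPSF libraries than in any siControl library. It went from -6.40 ± 0.364 to -5.58 ± 0.295 (SD, n = 3 each). That of SLIT1 to SLIT2 went from 1.70 ± 0.311 to 2.92 ± 0.798 (SD, n = 3 each), with 2.02 in siPSF replicate 3. The exact permutation test, two-sided, gave p = 0.10 for both pairs, 0.15 after adjustment over the 9 pairs compared. The log2 ratio of SLIT2 to SLIT3 overlapped between groups (difference -0.40, exact permutation test, two-sided, p = 0.20, adjusted 0.225). Together the ligands gave 38.3, 42.6 and 45.03 FPKM with siControl, against 30.4, 32.8 and 21.6 FPKM with siPSF.

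SLIT2 and SLIT3 each carry a copy of the microRNA gene miR-218 in an intron, intron 15 of SLIT2 and intron 14 of SLIT3 in their MANE Select transcripts. It is shown because both host genes fell and because miR-218 is known to repress ROBO1 in other tissues. Both copies give the same mature 5′ strand (RefSeq, GRCh38.p14; capitals mark the seed, bases 2 to 8, and MIR218-1 lies at chr4:20528299-20528319 and MIR218-2 at chr5:168768211-168768231).
hsa-miR-218-5p: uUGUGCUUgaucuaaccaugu
The seed's complement AAGCACA stands in 14.2% of 18780 MANE 3′ UTRs of all lengths. It occurs in those of ROBO1 and SLIT3 at 1 place each and of ROBO2 and SLIT2 at 2 places each. It also occurs in those of members that were not called, at 2 places in SRGAP1 and 1 in SRGAP2, and it is found at 0 places in those of ROBO3, SLIT1 and SRGAP3. The match in ROBO1, both in ROBO2 and the one in SLIT3 read as follows on the transcript strand (GRCh38, capitals mark the match).
ROBO1, chr3:78597929-78597956: ttttttggttttaaAAGCACAatcacta
ROBO2, chr3:77646497-77646524: ttttatttggtgatAAGCACAaatctct
ROBO2, chr3:77648942-77648969: atcatgtccaatacAAGCACAgcttcat
SLIT3, chr5:168663645-168663672: ggcaagagtatgggAAGCACActgagga
These are matches of letters and were not tested as sites.

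Poly(A)-selected libraries do not measure mature microRNAs. The table still has a row for MIR218-2, inside SLIT3, with 24, 17 and 25 reads after siControl and 41, 47 and 28 reads after siPSF. All siPSF libraries lay above all siControl libraries here, as for 16.7% of all tested genes. The host gene SLIT3 lay on the opposite side. MIR218-2 lies in intron 14 of SLIT3 on the same strand, and whether its reads came from SLIT3 RNA was not tested. The log2 fold change of MIR218-2 was 1.04 (SE 0.34), and the gene missed the threshold (edgeR's adjusted p = 0.056). It passed without siPSF replicate 3 (adjusted p = 0.040) and with limma on log2(FPKM + 0.5) and log2(FPKM + 0.1) (limma's adjusted p = 0.018 and 0.029). MIR218-1 was not listed.

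Of the effectors, 1 of 3 was called lower, beside 8.27% of all tested genes. SRGAP3 (gene ID 9901; chromosome 3 from 8980591 to 9363027, minus strand, 382.4 kb), a negative regulator of Rac known from intellectual disability, gave 31.7, 33.5 and 33.6 CPM with siControl. With siPSF the values were 22.9, 25.3 and 13.1 CPM. The siControl libraries were close together, and siPSF replicate 3 stood well below the rest. The log2 fold change was -0.69 (SE 0.18, edgeR's adjusted p = 0.027), and -0.45 without siPSF replicate 3 (adjusted p = 0.0075). The call was lost without siControl replicate 2 (edgeR's adjusted p = 0.088), without siControl replicate 3 (0.10) and without the filter on low counts (0.052).

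SRGAP2 (gene ID 23380; chromosome 1 from 206203541 to 206464436, plus strand, 260.9 kb), which shapes dendritic spines and neuronal migration, had levels of 66.1, 66.6 and 69.1 CPM with siControl. Its siPSF levels were 58.5, 64.8 and 55.4 CPM. The groups did not overlap, but the gap between 64.8 and 66.1 CPM was small. The log2 fold change was -0.18 (SE 0.09, edgeR's adjusted p = 0.20).

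SRGAP1 (gene ID 57522; chromosome 12 from 63844700 to 64162217, plus strand, 317.5 kb), the srGAP first tied to Slit signalling through Cdc42, gave 16.9, 11.8 and 14.2 CPM with siControl. It gave 12.4, 12.1 and 10.8 CPM with siPSF. The groups overlapped, and the log2 fold change was -0.28 (SE 0.14, edgeR's adjusted p = 0.19). Its implied length moved more than that of other members, from 19569 to 20412 nt in the siControl libraries to 21763 nt in siPSF replicate 3. The log2 ratio of SRGAP2 to SRGAP3 went from 1.03 ± 0.0350 to 1.596 ± 0.419 (SD, n = 3 each) without overlap. Its siPSF values were 1.35, 1.36 and 2.08, the last in replicate 3. The exact permutation test, two-sided, gave p = 0.10 for this pair, 0.15 after adjustment over the 9 pairs compared. The ratio of SRGAP1 to SRGAP2 overlapped between groups (difference -0.09, exact permutation test, two-sided, p = 0.80). So did that of SRGAP1 to SRGAP3 (difference 0.48, exact permutation test, two-sided, p = 0.20).

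SRGAP2 has partial human copies, SRGAP2B, SRGAP2C and the pseudogene SRGAP2D, whose truncated proteins or transcripts share its 5′ part. Of the 50-mers of the SRGAP2 MANE Select transcript, as long as 1 read, 26.0% also occur in a transcript of 1 of the copies, so counts in that part could be split among them. No 50-mer of the other 8 members' MANE Select transcripts occurs in a transcript of another member. SRGAP2B had a log2 fold change of -0.15 (edgeR's adjusted p = 0.37), SRGAP2C of -0.14 (0.51) and SRGAP2D of -0.28 (0.14). None of the 3 copies was called. FAM72A, whose gene overlaps SRGAP2 and which itself has near-identical copies, had a log2 fold change of -0.01 (edgeR's adjusted p = 0.96). ROBO4, the endothelial Robo, was not listed.

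The other genes of the pathway, 60 in a fixed list, were looked at to set the members beside their coreceptors and signalling partners. Of the 58 tested, 9 were lower and 1 was higher after siPSF, with a median log2 fold change of -0.06. That is 9 of 58 genes lower beside 8.27% of all tested genes, and 1 of 58 higher beside 6.65%.

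**Figure D3:**
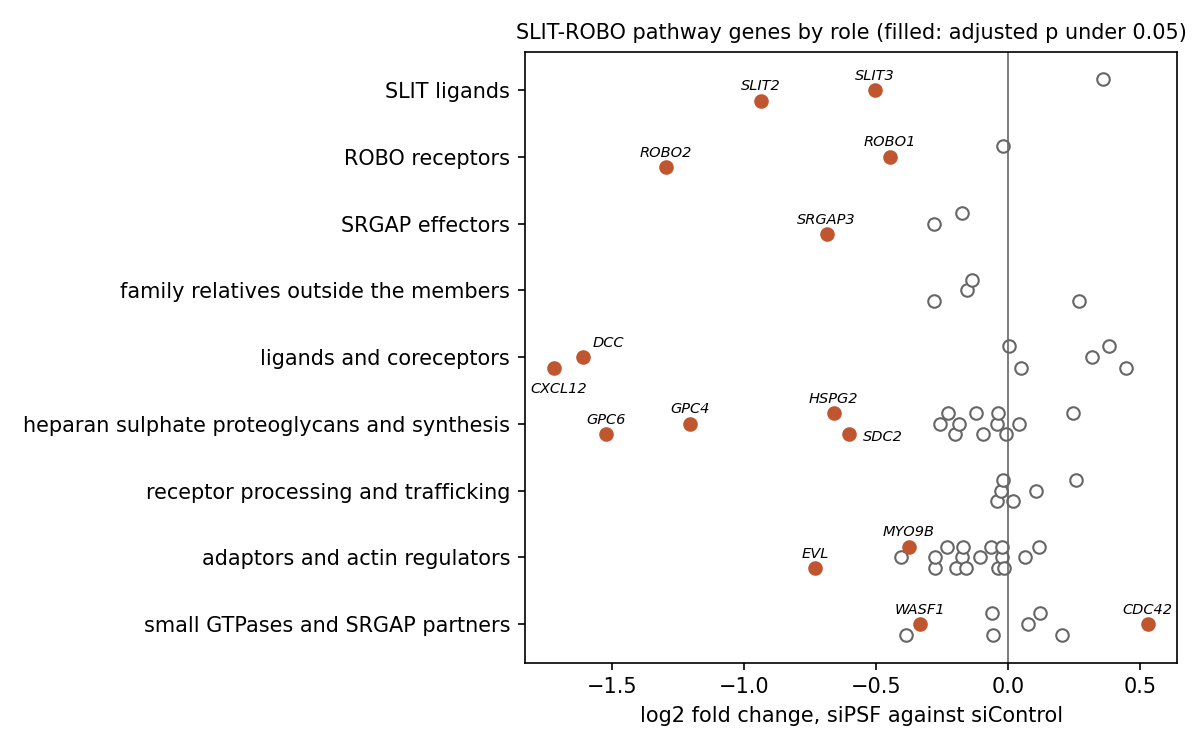
Each point is 1 gene, placed on the horizontal axis by its log2 fold change (siPSF against siControl) and on the vertical axis by its role. Filled, named points passed an adjusted p under 0.05: 5 of the 9 members, all lower, and 10 of the 58 other genes, of which CDC42 alone was higher.

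The heparan sulphate proteoglycans and their enzymes, which help Slits bind Robo, had 4 of 15 genes lower and 0 higher. Among all tested genes, 8.27% were lower and 6.65% higher. GPC6, a glypican, went from 35.8 ± 4.78 to 12.4 ± 1.79 CPM (SD, n = 3 each; log2 fold change -1.53, SE 0.13, edgeR's adjusted p = 4.5e-05). HSPG2, which encodes perlecan, had a log2 fold change of -0.66 (SE 0.11) and SDC2, a syndecan, of -0.60 (SE 0.11), with edgeR's adjusted p of 0.0026 and 0.0036. GPC4, at 0.842 to 1.06 CPM after siControl, was the remaining gene called lower here; it lies outside the naming rule and was chosen after its values were seen. The other 11 genes were not called, SDC3, AGRN and EXT1 among them.

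Of 7 further ligands and coreceptors, 2 were lower, beside 8.27% of all tested genes. CXCL12, the chemokine whose signal through CXCR4 Slits can dampen, went from 2.50 ± 0.472 to 0.757 ± 0.116 CPM (SD, n = 3 each; log2 fold change -1.72, SE 0.21, edgeR's adjusted p = 3.4e-04). DCC, the netrin receptor that binds Robo1 in its cytoplasmic part, gave 7.004, 6.86 and 7.01 CPM and then 2.76, 2.65 and 1.40 CPM (log2 fold change -1.61, SE 0.21, edgeR's adjusted p = 5.1e-04). NELL2, a ligand of ROBO3, was not called (17.9 to 20.9 CPM after siControl and 20.5 to 29.9 CPM after siPSF; edgeR's adjusted p = 0.14).

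Downstream, 2 of 18 adaptors and actin regulators were lower, where 8.27% of all tested genes were lower and 6.65% higher. EVL, an Ena/VASP protein that promotes actin filament growth, went from 86.4 ± 5.12 to 52.0 ± 1.95 CPM (SD, n = 3 each; log2 fold change -0.73, SE 0.08, edgeR's adjusted p = 2.5e-04), while its relatives ENAH (log2 fold change 0.06) and VASP (-0.01) were not called. MYO9B, an unconventional myosin that ROBO1 inhibits, had a log2 fold change of -0.38 (SE 0.08, edgeR's adjusted p = 0.0100), and lost the call without siControl replicate 2 (0.051) or siPSF replicate 1 (0.059). Of the 8 small GTPases and srGAP partners, CDC42 was called higher and the WAVE complex gene WASF1 lower. CDC42 went from 139, 105 and 119 CPM to 172, 158 and 195 CPM (log2 fold change 0.53, SE 0.11, edgeR's adjusted p = 0.0084; 0.053 without siControl replicate 2), and was not called by limma on FPKM with either pseudocount (adjusted p = 0.058 and 0.076). WASF1 had a log2 fold change of -0.33 (SE 0.10, edgeR's adjusted p = 0.037), and was called in only 1 of the 6 fits that left out a library. Its call was also lost with the replicate block (edgeR's adjusted p = 0.051) and with limma on log2(FPKM + 0.1) (0.055). None of the 6 genes of receptor processing and trafficking, such as the Robo-cleaving protease gene ADAM10 and the deubiquitinase gene USP33, was called.

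Gene length, taken as the RefSeq span, moved with the result. Of the 9 members, 8 span 100 kb or more, and ROBO3 is the exception. Among protein-coding genes of 100 kb or more, 25.1% of 2770 were called lower, against 4.64% of 11648 shorter ones. Of the 6 members of 300 kb or more, 5 were called lower, all but SRGAP1; in that class 47.3% of 615 genes were called lower and the median log2 fold change was -0.44. The quartiles of the class were -0.88 and -0.12, and SLIT3, ROBO1, SRGAP1 and SRGAP3 lay between them, while SLIT2 and ROBO2 lay below. Of the 53 genes of 1 Mb or more, 30 (56.6%) were called lower, with a median of -0.89. Ranked there from the largest fall, ROBO2 was number 17 and ROBO1 number 39. The MANE start lies 1133.4 kb into the span of ROBO2 and 113.4 kb into that of SRGAP3. Counted from that start, ROBO2 would leave the class of 1 Mb or more and SRGAP3 that of 300 kb or more. The part of gene length in the changes of the members and of the other pathway genes was not tested.

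**Figure D4:**
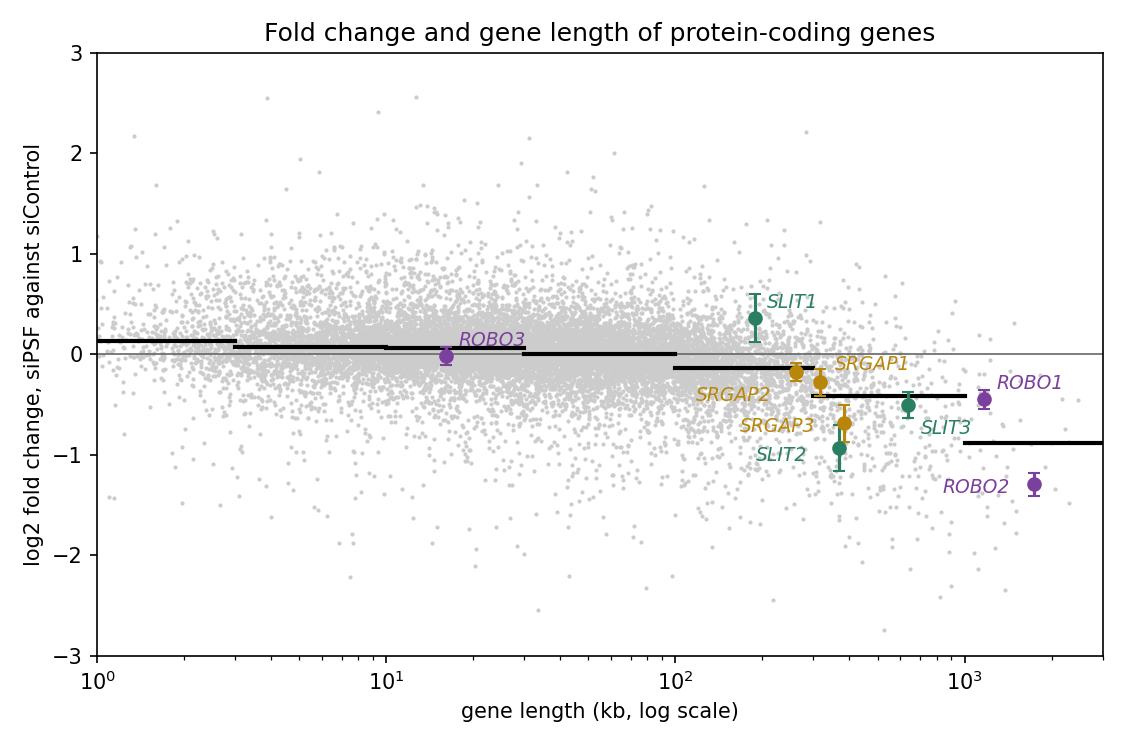
Grey points are 14418 protein-coding genes, by length in kb (log axis) and log2 fold change, siPSF against siControl, with 83 outside the axes; black bars are medians within length steps. Coloured points with SE bars are the 9 members. SLIT1, SRGAP1 and ROBO1 lie above the bars of their length steps. SLIT2, SLIT3, SRGAP2, SRGAP3 and ROBO2 lie below theirs, and ROBO3 lies near 0 among short genes.

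Over the 6 libraries, the genes whose log2 CPM was most like that of ROBO2 (Pearson r, genes of at least 1 CPM on average) were R3HDM2, INSRR and C20orf194, with an r of 0.998, 0.997 and 0.997. They had log2 fold changes of -1.11, -1.06 and -0.46. The 6 points share the 2 treatment groups, and the best matches were picked from all tested genes, so such an r is a description.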

How the data were processed

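Poly(A)-selected RNA of 6 SH-SY5Y samples was sequenced as 50 bp paired ends. The authors deposited 1 table with a read count (no normalization) and an FPKM value (scaled by transcript length and mapped reads, written as RPKM in the methods) per gene and library. The sources differ on how it was made: the methods name Bowtie 2, TopHat and hg38 RefSeq mRNAs, the submitters' processing notes Trimmomatic, HISAT2 2.1.0 and StringTie 2.1.3b with GRCh38. They also differ on the kit, TruSeq RNA v2 or stranded mRNA, and strand use in counting is not given in the sources used here. Sample titles gave groups and replicates.

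Counts were filtered (filterByExpr), normalized by TMM and tested with edgeR 4.0.16 (limma 3.58.1, DESeq2 1.42.0 and R 4.3.3 for alternatives), without a block, after a test on simulated data. Calls are at an adjusted p under 0.05. Members and lists were chosen with earlier results of these data known. Named are the members, up to 8 called pathway genes per direction with a mean of 1 CPM or more, SRGAP2 copies, overlapping genes and the 3 genes most like ROBO2. Alternatives for named genes outside the family, and the length classes, implied transcript lengths, shared 50-mers, promoter motifs and miR-218 matches, were chosen after seeing the data. Positions, promoters and microRNAs are from RefSeq (GRCh38.p14), transcripts from GENCODE 44. No replicate pair agreed within sampling noise (chi-square per degree of freedom 21.7 or more). A list of glial markers is not reported here.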

Additional observations from a re-analysis of the deposited data

How the results depend on the processing

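The number of members called lower was 5 in the main fit and 2 to 5 in the fits that each left out 1 library: it was 3 without siControl replicate 2 and 2, ROBO1 and ROBO2, without siControl replicate 3. The number called higher was 0 to 1, the 1 being SLIT1 without siPSF replicate 3. Of pathway genes, 7 to 13 were called lower and 0 to 1 higher in these fits, and the number higher was 2 with the replicate block and 0 with limma on FPKM at either pseudocount (0.5 and 0.1), where 56 genes were tested. Log2 fold changes that turned sign were 0.019 for ROBO3 without siControl replicate 1 (range -0.089 to 0.019 with each library left out), and 0.040 and 0.054 for FAM72A without siControl replicate 3 and without siPSF replicate 2 (range -0.076 to 0.054). Over the 6 fits with a library left out, the rise of the log2 ratio of ROBO1 to ROBO2 stayed between 0.80 and 0.90, and the log2 ratio of summed FPKM stayed between -0.69 and -0.41 for the ligands, -0.22 and -0.19 for the receptors and -0.45 and -0.28 for the effectors. With FPKM rescaled to MANE Select lengths, chosen after seeing the data, it was -0.34 for the receptors (main -0.21), because ROBO3 then weighs less. Such FPKM ratios lack the TMM normalization: the median log2 fold change over genes was -0.06 with limma on log2(FPKM + 0.5) and 0.01 in the main fit. ROBO1, ROBO2 and SLIT3 were called lower under all 6 other settings (DESeq2 size factors, no filter, DESeq2's Wald test, replicate block and the limma fits), SLIT2 under the 4 that tested it and SRGAP3 under 5, the exception being no filter. Replicate numbers did not pair the libraries (correlations of same-numbered deviations -0.022, 0.056 and 0.056); with the replicate block 5 members were called lower. SLIT2 and MIR218-2 rest on few reads.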
